A study of Mus musculus with 32 samples.

Results

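The cytosolic ribosomal protein genes are described here in neoplastic cells of mouse lung tumors in which Lkb1 (gene symbol Stk11) was intact, silenced or restored. The genes were chosen by symbol alone: names that begin with Rpl or Rps and a number, with Rplp0, Rplp1, Rplp2 and Rpsa, leaving out names that contain "-ps" (processed pseudogene), the Rps6k kinases and Rps19bp1. This gave 92 of the 53558 genes in the files, 37 of the small (40S) subunit and 55 of the large (60S) subunit. The annotation classed 85 of them as protein coding and 7 as pseudogenes (Rpl32l, Rpl37rt, Rpl6l, Rps12l1, Rps3a2, Rps3a3 and Rps4l).

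There were 32 bulk RNA-seq libraries in 5 groups. KT tumors (4 libraries, 2 from females and 2 from males, no treatment) carried Rosa26LSL-tdTomato, a Cre-activated fluorescent reporter, and intact Lkb1. Non-restored tumors (10 libraries, 7 female and 3 male) also carried Lkb1XTR/XTR, a gene trap that Cre turns on. Of these, 6 carried Rosa26LSL-tdTomato/FLPo-ERT2 and received vehicle, and 4 had no FLPo-ERT2 and received tamoxifen. Restored tumors (7 libraries, all female) carried Lkb1XTR/XTR and FLPo-ERT2 and received tamoxifen in 4 mg doses, which lets the recombinase remove the trap. The same was done with Trp53flox/flox, giving Trp53-deficient non-restored tumors (7 libraries from 4 animals by their titles, 4 female and 3 male, 5 given vehicle and 2 given tamoxifen without FLPo-ERT2) and Trp53-deficient restored tumors (4 libraries, all female). All mice, KT included, shared the Cre-activated alleles that start these tumors and received Lenti-Cre into the airways. By the study's description, KT mice received a lower Lenti-Cre dose than the Trp53 wild-type mice with Lkb1XTR. Treatment, in every group but KT, lasted 2 weeks. Tumors grew for 24 to 27 weeks when Trp53 was wild-type and for 16 to 19 weeks when it was deleted, so Trp53 status and tumor age cannot be told apart. Sex also differed between groups, and fits to female libraries alone are given among the alternatives. By the study's description, the Trp53 wild-type tumors with Lkb1XTR came from a smaller number of mice than of libraries. Several libraries must therefore share an animal, and the labels do not say which. Libraries are the units of every test on these groups, so p-values there are too small and leaving out a library need not leave out an animal. In the Trp53-deficient groups, animals are known only from the titles. Sorting removed cells positive for CD45, CD31, F4/80 or Ter119.

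A ribosome is built from ribosomal RNA and about as many proteins as there are genes in this family, each normally made from a single active gene. LKB1 activates AMPK, which restrains the kinase complex mTORC1. mTORC1 in turn promotes the translation of messenger RNAs that begin with a run of pyrimidines (terminal oligopyrimidine or TOP messages), a class that includes nearly all ribosomal protein messages, and its substrate S6 kinase phosphorylates the ribosomal protein Rps6. That control acts mainly on translation, which messenger RNA levels do not measure. Ribosomal protein messages have also been copied back into the genome many times, and these processed pseudogenes are nearly identical to the parent message, so a short read can match both.

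The pairs of sequences below show how little separates a gene from its most counted copy. All are 30-base stretches of the coding strand from GENCODE M21 transcripts on GRCm38 (mm10), with capitals at the bases that differ.
Rps13: cccaccTaattggaaatatgagtcAtccac
Rps13-ps1: cccaccCaattggaaatatgagtcGtccac
Rps15a: atggtgCGaatgaatgttctggcggatgct
Rps15a-ps7: atggtgGAaatgaatgttctggcggatgct
Rpl3: gggcttcctgcctcgCaagcgcagcagccg
Rpl3-ps1: gggcttcctgcctcgAaagcgcagcagccg
Rpl34: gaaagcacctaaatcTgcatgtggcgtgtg
Rpl34-ps1: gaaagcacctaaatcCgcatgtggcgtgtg
Rpl30: cgtgctgggctacaaGcagactctgaagat
Gm12191: cgtgctgggctacaaAcagactctgaagat

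Counted from the first base of the coding sequence, with the gene's base first and the copy's base last, Rps13 (chr7:116331505-116334195, minus strand) and Rps13-ps1 (chr8:87047689-87048226) differ at T411C and A429G, the only 2 mismatches in 453 coding bases. Rps15a (chr7:118104372-118116188) and Rps15a-ps7 (chr2:152185291-152185682) differ at 4 of 389 aligned coding bases, 2 of them (C7G and G8A) in the stretch shown. Rpl3 (chr15:80077791-80091868) and Rpl3-ps1 (chrX:13202571-13203780) differ at C57A and T786C, 2 of 1209 bases. Rpl34 (chr3:130726831-130730398) and Rpl34-ps1 (chr6:71124610-71124963) differ at 2 of 353 bases. Rpl30 (chr15:34440505-34443640) and Gm12191 (chr11:49678710-49679057) differ at G96A alone among 345 bases. Rpl5 (chr5:107900502-107909005) and Gm15500 (chr7:114705217-114706235) are identical over all 891 coding bases. In all, 1114 annotated pseudogenes were matched to 82 of the 92 genes, by name or by a sequence match.

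The start of these messages was examined in RefSeq promoters of GRCm38.p6, as the 15 bases before and 15 after each annotated start. The motif was an unbroken run of at least 7 bases that are each C or T, on the strand of the gene only. It was present in 36 of 79 windows of 67 ribosomal protein genes (45.57%) and in 6095 of 32851 windows of all genes (18.55%). The sequences below show the range among genes described here, with the longest run in capitals.
Rps6, chr4:86857353-86857382, minus strand: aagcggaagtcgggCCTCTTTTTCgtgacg
Rps27, chr3:90213634-90213663, minus strand: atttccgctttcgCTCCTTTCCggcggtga
Rps13, chr7:116334176-116334205, minus strand: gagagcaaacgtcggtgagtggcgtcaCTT
Within the window the run was 10 bases long in Rps6, 9 in Rps27 and 3 in Rps13. The Rps13 run ends at the last base of the window, so its full length is not shown. An annotated start can lie a few bases from the one a cell uses, so a missing run says only that these letters are not in this window.

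Total counts ranged from 1302482 to 5943950 per library. The trapped gene checked the labels: Stk11 was at 21.5 ± 5.53 CPM (read counts scaled to a common total of gene counts, mean ± SD) in KT tumors. It was at 0.433 ± 0.396 CPM in non-restored and 15.5 ± 3.65 CPM in restored tumors, and with Trp53 deleted at 0.345 ± 0.336 and 11.9 ± 2.66 CPM. Trp53 was at 23.7 to 30.5 CPM on average in the 3 wild-type groups and at 2.61 and 3.17 CPM in the Trp53-deficient groups. All 10 alveolar type II and epithelial markers had counts in at least 50% of the libraries, with Sftpc, a surfactant protein, averaging 7923 to 32560 CPM by group. Immune markers (12 genes) summed to 4.88 to 212 CPM per library, endothelial markers (8) to 1.10 to 116 CPM, fibroblast markers (8) to 3.73 to 2025 CPM and red blood cell markers (6) to 0 to 6.06 CPM. All 8 endothelial and all 8 fibroblast markers, 5 of 12 immune markers and 1 of 6 red blood cell markers had counts in at least 50% of the libraries. A pair of libraries stood apart. Summed over 6 airway marker genes, Trp53-deficient non-restored replicate 7 had 12651 CPM and non-restored replicate 8 had 6260 CPM, while the next highest library had 1400 CPM. The same 2 libraries had the lowest alveolar type II marker sums, 10725 and 8185 CPM. In bulk samples, fewer cells of a type and less RNA per cell cannot be told apart. Results that rest on these libraries are given with and without them.

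Ribosomal protein genes were among the most abundant messages. On the TPM scale (which corrects counts for transcript length), 84 of the 92 genes averaged above 100 TPM over the 32 libraries, and the median of the averages was 1246 TPM. Rps27, a 40S protein with a zinc finger, was highest at 9072 TPM, followed by Rpl32 of the 60S subunit at 5448 TPM and by Rps27rt, a retrogene of Rps27, at 3913 TPM. Rps27 averaged 9029 ± 1616 TPM in KT (SD, n = 4), 8179 ± 1294 in non-restored (n = 10) and 8298 ± 1163 in restored tumors (n = 7), ranges that overlapped. Rpl41, which encodes the shortest ribosomal protein, averaged 3880 TPM. Rps6 averaged 1335 ± 173 TPM in KT and 1395 ± 247 TPM in non-restored tumors. Rpl5, which together with Rpl11 and 5S rRNA can bind and inhibit the p53 ligase Mdm2, averaged only 211 TPM, and its identical copy Gm15500 took 79.5% to 88.0% of the counts of gene and copies in every library.

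At the other end, 86 genes had counts in every library, and the least abundant of these was Rpl7l1, an Rpl7 paralog linked to ribosome assembly, at 16.3 TPM. Of the genes at lower levels, Rpl6l averaged 8.60 TPM with no count in 1 library, Rps4l 5.29 TPM with no count in 7 and Rpl32l 2.41 TPM with no count in 12. The tissue-restricted paralogs were near or at 0. Rpl3l, known from heart and skeletal muscle, had 15 counts in all and none in 24 libraries. Rpl39l, known from testis, had 2 counts, both in 1 library. Rpl10l, also a testis gene, had 0 counts in 32 libraries.

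**Figure D1:**
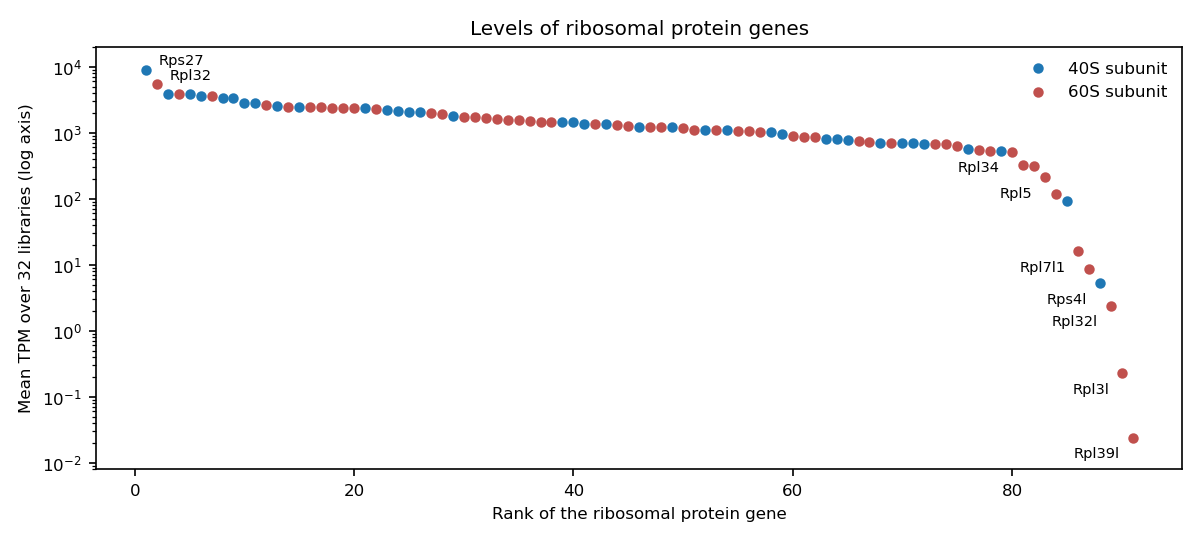
Mean TPM over 32 libraries (log axis) of each ribosomal protein gene against its rank, colored by subunit. The highest, Rps27, was at 9072 TPM and 84 of 92 genes were above 100 TPM, while Rpl3l and Rpl39l were below 1 TPM. Rpl10l, with 0 counts, cannot be drawn on a log axis.

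Taken as a whole, the family took overlapping shares of counts in the 3 Trp53 wild-type groups. Its share of all gene counts was 5.49%, 4.12%, 4.83% and 4.90% in the 4 KT libraries. In non-restored tumors it was 3.68% at the lowest, 4.17% at the median and 6.04% at the highest, and in restored tumors 3.81%, 4.21% and 5.05%. In Trp53-deficient tumors it was 4.13%, 5.05% and 6.52% without restoration, and 4.32%, 4.92%, 5.63% and 5.88% in the 4 restored libraries. The ranges of all 5 groups overlapped. The highest shares, 6.52% and 6.04%, were those of the 2 libraries with the highest airway marker sums, and the part of airway cells in these shares was not tested.

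**Figure D2:**
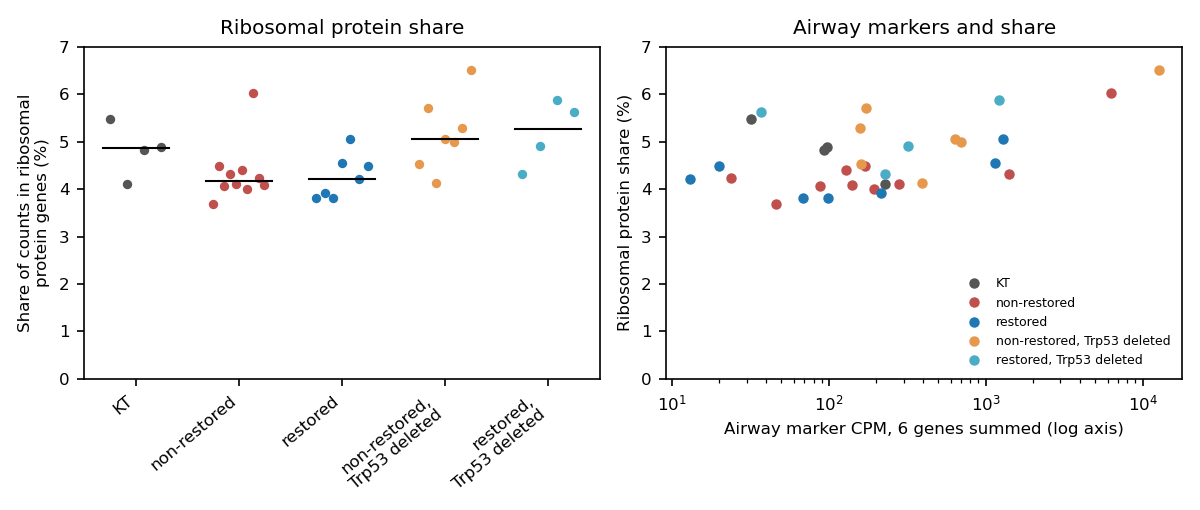
Left, percent of all gene counts in ribosomal protein genes, 1 point per library in each of the 5 groups, with a line at the group median. Right, the same share against the summed CPM of 6 airway markers (log axis). The libraries at 6.52% and 6.04% were those with 12651 and 6260 CPM of airway markers.

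Non-restored tumors were compared with KT tumors to ask what differs between them. Non-restored and restored tumors differed from KT in mouse line, treatment and Lenti-Cre dose as well. In comparisons with KT these cannot be told apart from Lkb1 status. Of 87 genes tested, 75 were lower and 12 higher in non-restored than in KT tumors. Their median log2 change was -0.17, against 0.03 over all genes tested. Genes of both subunits lay on that side, 31 of 36 in the 40S and 44 of 51 in the 60S subunit. Past the test (edgeR quasi-likelihood test, Benjamini-Hochberg adjusted p under 0.05 over all genes), 7 fell and none rose, that is 7 of 87 beside 5.86% of the 12636 genes tested in either direction and 3.48% lower. The genes were Rps13, Rps3a1 and Rps15a of the 40S subunit and Rpl37a, Rpl34, Rpl37 and Rpl3 of the 60S subunit. At an unadjusted p under 0.05 there were 29 ribosomal protein genes, beside 2626 of all 12636 genes. Some of the 10 non-restored libraries share an animal, so these p-values are too small.

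The largest of these changes were in genes with near-identical copies. Rps13 was at 481, 495, 335 and 509.7 CPM in the 4 KT libraries and at 84.0 (lowest), 102 (median) and 169 CPM (highest) in the 10 non-restored libraries, groups that did not overlap. Its log2 fold change was -2.09 (SE 0.15, adjusted p = 2.00e-08). Summed with its copies, the Rps13 family was at 506, 518, 605 and 533 CPM in KT and 458 to 863 CPM in non-restored tumors, with a log2 change of 0.03 (SE 0.14, adjusted p = 0.922). Rps3a1, which sits near the exit of the messenger RNA channel, was at 1890, 252, 1248 and 1284 CPM in KT and 203 to 361 CPM in non-restored tumors, with KT replicate 2 inside the range of the non-restored group. Its log2 change was -2.20 (SE 0.25, adjusted p = 1.65e-05), and -0.57 (SE 0.14, adjusted p = 0.0147) once the annotated pseudogenes Rps3a2 and Rps3a3 were summed with it.

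Rps15a was at 1033 to 1110 CPM in KT and had a median of 620.1 CPM in non-restored tumors, of which only replicate 8 (1038 CPM) reached the KT range. Its log2 change was -0.70 (SE 0.13, adjusted p = 0.00198) alone and -0.38 (SE 0.13, adjusted p = 0.0952) with its copies. Rpl34 was at 85.9, 169.9, 192 and 169 CPM in KT and at 40.9 (lowest), 56.5 (median) and 151 CPM (highest) in non-restored tumors. Its log2 change was -1.08 (SE 0.30, adjusted p = 0.0351) alone and -0.30 (SE 0.14, adjusted p = 0.228) with its copies. Rpl3, which lies near the peptidyl transferase center, changed by -0.47 (SE 0.14, adjusted p = 0.0396) alone and by -0.38 (SE 0.11, adjusted p = 0.0539) with its copies.

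Rpl37a and Rpl37, zinc-binding proteins of the 60S subunit, also passed. Copies held at most 1.12% of the Rpl37a family in any library, and no copy was matched to Rpl37. Rpl37a was at 1174, 524, 664 and 654 CPM in KT and 381 to 599.8 CPM in non-restored tumors, with a log2 change of -0.64 (SE 0.15, adjusted p = 0.0115). Rpl37 was at 726, 430.1, 582 and 432 CPM in KT and 317 to 602 CPM in non-restored tumors, with a log2 change of -0.54 (SE 0.15, adjusted p = 0.0356), and of -0.54 (adjusted p = 0.0360) when summed with its near-copy Rpl37rt. Both pairs of groups overlapped. With every family summed, 3 genes passed the test (Rps3a1, Rpl37a and Rpl37) beside 5.79% of all genes, and the median over 87 genes was -0.18. In 3 more genes the log2 change alone and with copies differed by over 0.5 and neither passed the test: Rpl29 (0.65 alone, 0.09 summed), Rpl30 (0.20 and -0.39) and Rps2 (0.41 and -0.33).

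The number of genes that passed rested on single libraries. It was 29, all lower, without non-restored replicate 8, the library with high airway markers (beside 7.61% of all genes), with a median log2 change of -0.25. It was 4 without KT replicate 1, KT replicate 3 or non-restored replicate 1, 7 or 10. In these 5 fits 2.61% to 5.30% of all genes passed. By arm, 19 genes fell when only the vehicle-treated non-restored libraries were used (beside 5.32% of all genes), and 3 when only the tamoxifen-treated ones without FLPo-ERT2 were used (beside 2.29%), which include replicate 8.

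**Figure D3:**
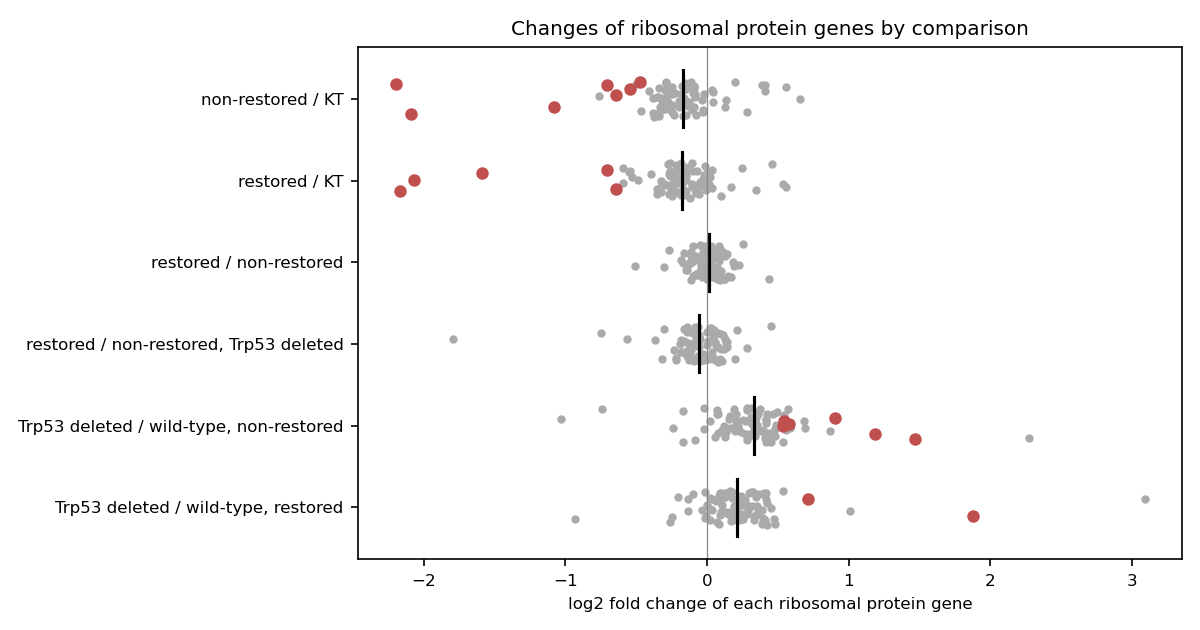
Log2 fold change of each tested ribosomal protein gene (1 point each, not summed with copies) in 6 comparisons, with a black line at the median. Red points passed an adjusted p of 0.05. The medians were -0.17 and -0.18 against KT, 0.02 and -0.06 for restoration, and 0.33 and 0.21 for Trp53 deletion.

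Restored tumors were compared with non-restored tumors to ask what returns with Lkb1. None of 87 genes passed the test, beside 1.87% of all 12636 genes, and DESeq2 also called 0. Libraries that share an animal were tested as separate samples in both groups. At an unadjusted p under 0.05 there was 1 gene, beside 1913 of all 12636 genes. It was Rpl21, with a log2 change of 0.26 (SE 0.09, adjusted p = 0.160). The median was 0.02, with 50 genes higher and 37 lower, and the log2 changes lay between -0.51 and 0.44. The direction depended on the non-restored libraries used: 76 genes were higher and 11 lower against the vehicle arm, and 9 higher and 78 lower against the tamoxifen arm. Without replicate 8 there were 74 higher and 13 lower, with a median of 0.09, and again none passed, beside 2.55% of all genes.

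Genes with known roles beyond the ribosome's core were followed singly. Rps6, the S6 kinase substrate, changed by -0.00 (SE 0.12) on restoration and Rpsa, the laminin receptor precursor, by -0.03 (SE 0.10). Rplp0, the base of the stalk that recruits elongation factors, changed by -0.07 (SE 0.13). Rpl22 changed by 0.07 (SE 0.11) and its paralog Rpl22l1, which can replace it in the ribosome, by -0.27 (SE 0.13, adjusted p = 0.351). Rpl22l1 was at 2016 ± 449 TPM in KT, 1808 ± 302 in non-restored and 1415 ± 266 in restored tumors. Rpl5, Rpl11 and Rpl41 changed by -0.06 (SE 0.11), -0.11 (SE 0.19) and -0.03 (SE 0.12). None of these genes passed the test in any comparison.

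Restored and KT tumors were compared to ask how far restored cells still differed from cells with intact Lkb1. This comparison shares the 4 KT libraries with the one of non-restored and KT tumors. Of 87 genes, 75 were lower and 12 higher, with a median of -0.18 against 0.01 over all genes. The test was passed by 5, all lower, beside 0.459% of all genes in either direction and 0.332% lower. The 5 were Rps13, Rps3a1, Rps15a, Rpl34 and Rpl3. As some restored libraries share an animal, the p-values are again too small. Rps13 was at 77.1 (lowest), 98.1 (median) and 128 CPM (highest) in restored tumors, all below the KT libraries, with a log2 change of -2.17 (SE 0.17, adjusted p = 1.47e-07), and of -0.00 (SE 0.15, adjusted p = 0.999) with copies. Rps3a1 changed by -2.07 (SE 0.28, adjusted p = 0.000591), and by -0.49 (adjusted p = 0.178) with Rps3a2 and Rps3a3 summed.

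Rps15a, at 592 to 783 CPM in restored tumors, was below all KT libraries, with a log2 change of -0.70 (SE 0.14, adjusted p = 0.0208), and -0.37 (adjusted p = 0.317) with copies. Rpl34, at 40.2 to 61.1 CPM, was also below all KT libraries, with -1.59 (SE 0.32, adjusted p = 0.0251) alone and -0.30 (adjusted p = 0.507) with copies. Rpl3, at 413 to 555 CPM against 556 to 915 CPM in KT, had -0.64 (SE 0.14, adjusted p = 0.0468) alone and -0.12 (adjusted p = 0.799) with copies. Once copies and near-copies were summed, 0 of 81 genes passed in edgeR beside 0.358% of all genes. At an unadjusted p under 0.05 there were then 12, beside 1318 of all 12571 genes. The count of 5 was 2 without KT replicate 4, and 3 without KT replicate 1, KT replicate 3, restored replicate 1 or restored replicate 4, fits in which 0.161% to 0.352% of all genes passed.

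Counts were divided differently between genes and their copies from library to library. Of 80 families with at least 20 counts in every library, 11 had a copy share (the percent of a family's counts given to its copies) that ranged over more than 20 points between libraries, and 60 ranged over less than 10 points. For Rps13 the copy share was 4.34%, 4.25%, 44.2% and 4.72% in the 4 KT libraries. It was 77.8% to 82.9% in all non-restored and 77.8% to 84.5% in all restored libraries, with no overlap with KT. In Trp53-deficient tumors it was 79.7% to 82.9%, except in non-restored replicates 4 and 5, which came from 1 animal and had 49.1% and 51.3%. Rps13-ps1 held 99.7% of the copy counts. It was at 8.07, 14.0, 260.3 and 16.7 CPM in KT and 373 to 710 CPM in non-restored tumors, with a log2 change of 2.54 (SE 0.62, adjusted p = 0.0175).

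Rps15a, 1.77 Mb from Rps13 on chromosome 7, behaved alike at a lower share. Its copies held 1.29%, 1.27%, 11.0% and 1.26% of the family in KT, 21.1% to 25.4% in non-restored, 22.8% to 24.4% in restored and 22.7% to 24.0% in Trp53-deficient tumors, except 11.1% and 12.3% in non-restored replicates 4 and 5. KT replicate 3 and that animal were thus intermediate in both families. Among 79 copies tested in non-restored against KT tumors, 6 rose (Rps13-ps1 and the Rps15a copies -ps3, -ps4, -ps6, -ps7 and -ps8) and 1 fell (Rps13-ps2), beside 5.86% of all genes. The Rps15a copies rose by log2 1.72 to 2.78.

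In other families the copy shares were divided otherwise among groups and libraries. For Rpl3 the copy share was 21% to 27.5% in KT, 21.3% to 32.0% in 9 non-restored libraries and 52.9% in replicate 9, and 43.7% to 54.7% in restored tumors, while all 11 Trp53-deficient libraries lay between 2.41% and 4.34%. Among the copies tested on restoration, Rpl3-ps1 alone passed, at 164 to 418 CPM in non-restored and 376 to 502.5 CPM in restored tumors, with a log2 change of 0.94 (SE 0.16, adjusted p = 0.00233). For Rpl34 the copy share was 80.0%, 41.0%, 38.3% and 45.2% in KT, 78.0% to 83.4% in restored tumors, and 78.4% to 82.1% in all non-restored libraries but replicates 4 and 5, both at 41.6%. For Rpl30 it was 58.8% to 61.6% in KT and 2.75% to 60.8% in non-restored tumors, and 3.30% to 4.72% in all Trp53-deficient libraries except non-restored replicate 6, at 38.5%. For Rps3a1 (copies Rps3a2 and Rps3a3 included) it was 21.8%, 81.6%, 36.8% and 32.1% in KT and 76.0% to 82.5% elsewhere, except for Trp53-deficient non-restored replicate 6 at 32.8%. That library was apart from its group in Rpl30, Rps3a1, Rpl29 and Rpl34.

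In Rps2 and Rpl29 the libraries fell at a few separate levels within groups. Rps2 copies held 63.4% to 65.5% of the family in KT, and in non-restored and restored tumors the libraries lay at 8.04% to 11.0%, 35.2% to 37.4% or 60.1% to 65.9%. Rpl29 copies held 28.8%, 75.4%, 25.7% and 74.7% in KT and 0.569% to 76.3% in non-restored tumors.

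Libraries of 1 animal had close copy shares, with an exception. Trp53-deficient non-restored replicates 1 and 2 were within 10 points in all 11 of these families, as were replicates 4 and 5. Replicate 3, by its title from the animal of replicates 1 and 2, was within 10 points of them in 9 and 8 families. Within groups, pairs whose titles do not name the same animal also matched in all 11: non-restored replicates 1, 3 and 6 with each other, restored replicates 1 and 6, 2 and 7, and 4 and 5, and Trp53-deficient restored replicates 2 and 3. Of 397 pairs across groups, 1 matched in all 11, Trp53-deficient non-restored replicate 3 and Trp53-deficient restored replicate 1. RSEM's posterior SD of a count, as a median over libraries, was 2.99% of the count for Rps13, 1.45% for Rpl29 and 6.51% for Rpl3-ps1. For Gm13841, a copy of Rpl29, it was 55.9% (65.1 on a median of 120.0 counts). Gm13841 and Gm8210 had equal CPM in every library and each held 48.4% of the Rpl29 copy counts. The division of counts between these copies is thus uncertain. What sets the copy shares was not tested.

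**Figure D4:**
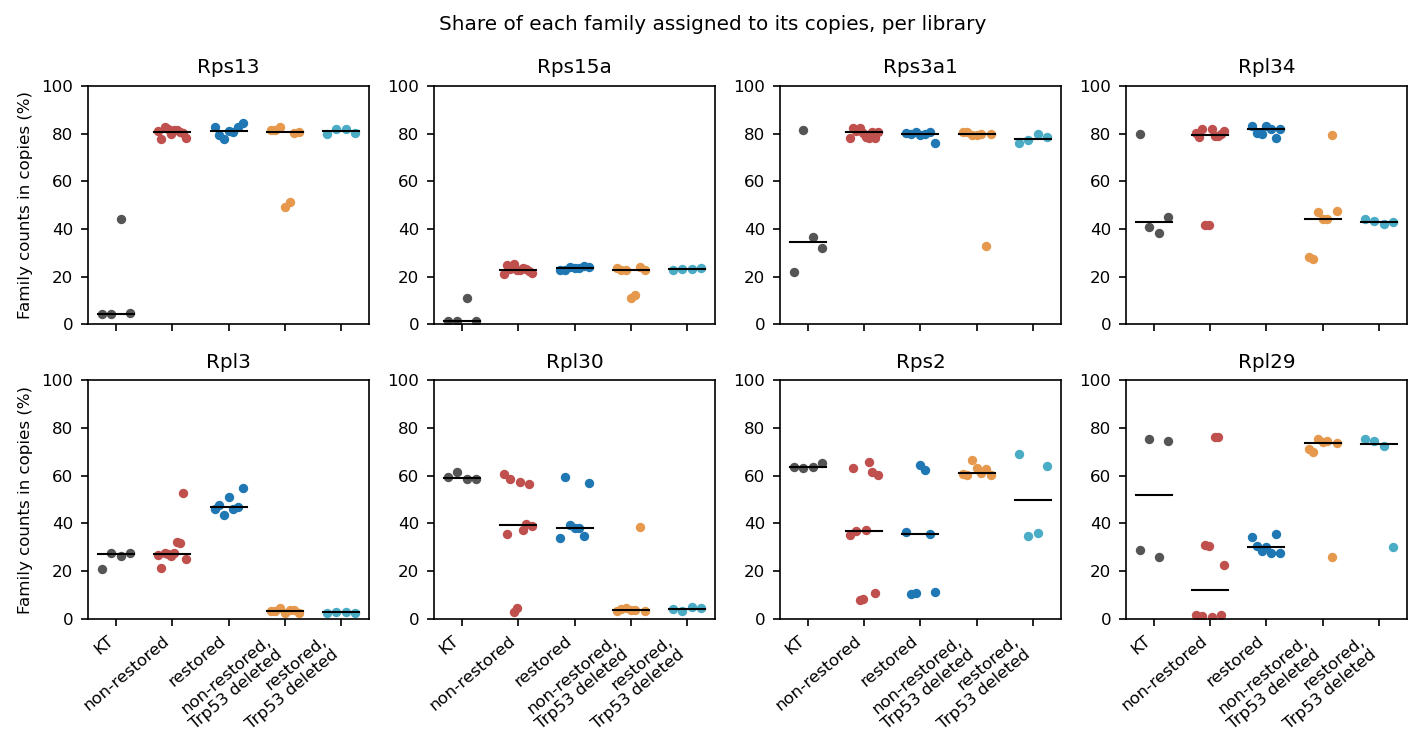
Percent of each family's counts assigned to copies of the gene, 1 point per library and a line at the group median, for 8 of the 11 families that varied most. Rps13 was at 4.25% to 4.72% in 3 of 4 KT libraries and at 77.8% or more in all Trp53 wild-type Lkb1XTR libraries, while Rpl3 was at 2.41% to 4.34% in every Trp53-deficient library.

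**Figure D5:**
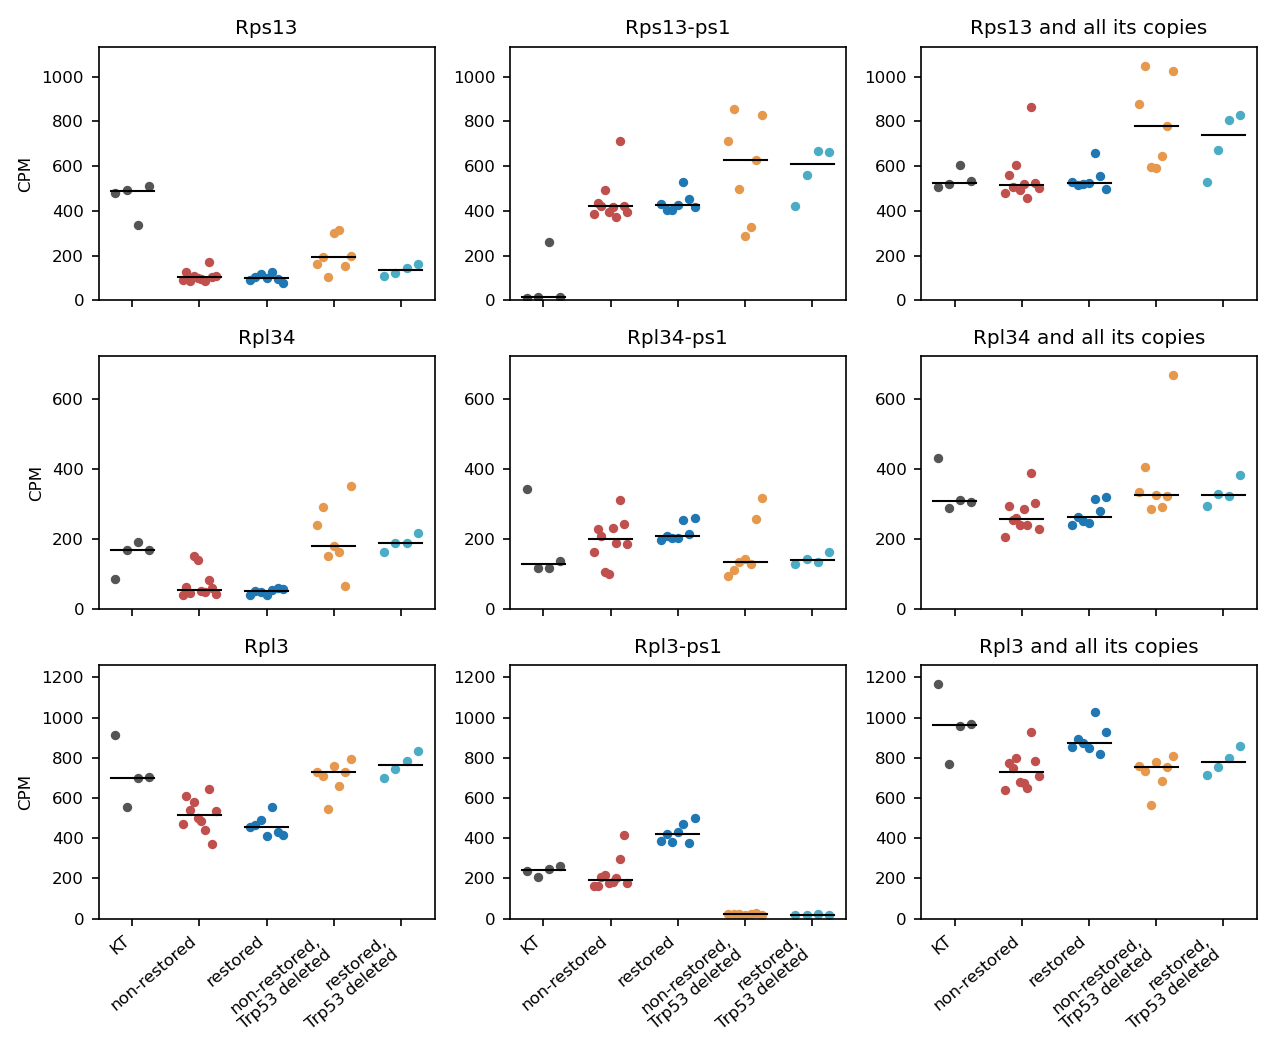
CPM of Rps13, Rpl34 and Rpl3 (left), of the copy with most counts (middle) and of the gene with all its copies (right), 1 point per library and a line at the group median. Rps13 fell from 335 to 509.7 CPM in KT to 84.0 to 169 CPM in non-restored tumors, while the summed family was at 506 to 605 CPM in KT and 458 to 863 CPM in non-restored tumors.

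In Trp53-deficient tumors, restored and non-restored animals (4 against 4, libraries of 1 animal summed) were compared to ask whether restoration acts without Trp53. None of 88 genes passed the test, nor did any of all 12518 genes (0%), although 748 genes in all had an unadjusted p under 0.05. DESeq2 called 23 genes, none of them ribosomal. Stk11 itself had a log2 change of 5.15 (adjusted p = 0.0587). The median over ribosomal protein genes was -0.06, with 33 higher and 55 lower. Without replicate 7, which had high airway markers, it was 0.04, with 58 higher and 30 lower, and again no gene passed (0%). The difference between the restoration effects with and without Trp53 was tested as an interaction, and 0 of 88 ribosomal protein genes and 0% of all genes passed. At an unadjusted p under 0.05 there was 1 such gene among 403 in all, and DESeq2 also called 0.

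Most ribosomal protein messages were higher in Trp53-deficient than in Trp53 wild-type tumors, groups that also differed in tumor age. In non-restored tumors 80 of 88 genes were higher and 8 lower, with a median log2 change of 0.33 against -0.02 over all genes, and 6 passed the test, all higher, with p-values that are too small where Trp53 wild-type libraries share an animal, beside 0.753% of all genes in either direction and 0.460% higher. At an unadjusted p under 0.05 there were 49, beside 2429 of all 13273 genes. In restored tumors 76 were higher and 12 lower, with a median of 0.21 against -0.004 over all genes. The test was passed by 2, both higher, beside 0.445% of all genes in either direction and 0.241% higher. At an unadjusted p under 0.05 there were 25, beside 2138 of all 13273 genes.

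In non-restored tumors the 6 genes were Rps13, Rpl27a, Rpl34, Rps15a, Rpl18 and Rps3a1. Rpl27a was at 334 (lowest), 359 (median) and 543 CPM (highest) with Trp53 deleted and at 221, 275 and 354 CPM without, ranges that overlapped slightly, with a log2 change of 0.54 (SE 0.11, adjusted p = 0.0198, and 0.0264 with copies). Rpl18 was at 319, 369.6 and 478 CPM against 213, 257 and 385 CPM, with 0.54 (SE 0.12, adjusted p = 0.0275), and copies held at most 1.30% of its family. Both are 60S proteins. Rps15a rose by 0.58 (SE 0.12, adjusted p = 0.0236), and by 0.54 (adjusted p = 0.0431) with copies.

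The other 3 no longer passed when all near-identical genes were summed, which left 3 genes beside 0.714% of all genes. Rps13 went from 0.91 (SE 0.17, adjusted p = 0.00848) to 0.55 (adjusted p = 0.0583), Rpl34 from 1.47 (SE 0.31, adjusted p = 0.0236) to 0.60 (adjusted p = 0.0781) and Rps3a1 from 1.19 (SE 0.29, adjusted p = 0.0475) to 0.55 (adjusted p = 0.0772). The count of 6 was 47 (46 higher and 1 lower) without non-restored replicate 8, beside 11.3% of all genes in that fit. It was 15 without the animal of Trp53-deficient replicates 4 and 5 (1.79% of all genes), 10 without non-restored replicate 4 (2.82%) and 1 without Trp53-deficient replicate 7 (0.188%). Without both libraries with high airway markers it was 8, all higher, beside 1.12% of all genes, and the median was 0.30. With female libraries alone it was 2, and the median was 0.43. The share of all genes in that fit is not given, so this count does not set ribosomal protein genes apart.

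In restored tumors the 2 genes were Rpl3 and Rpl34, both with copy shares that differed between the groups compared. Rpl3 was at 698, 745, 782 and 834 CPM in the Trp53-deficient libraries and 413 to 555 CPM in the others, without overlap, with a log2 change of 0.71 (SE 0.13, adjusted p = 0.0050). Rpl3-ps1 fell by 4.44 on the log2 scale (adjusted p = 3.26e-13), and the sum changed by -0.19 (SE 0.11, adjusted p = 0.400). Rpl34 was at 164, 189, 189 and 219 CPM against 40.2 to 61.1 CPM, with 1.88 (SE 0.34, adjusted p = 0.00604) alone and 0.28 (SE 0.18, adjusted p = 0.427) with copies. Rps27l, a p53-induced relative of Rps27, was at 821 ± 153 TPM in non-restored and 650.1 ± 105 TPM in Trp53-deficient non-restored tumors. Its log2 change was -0.24 (adjusted p = 0.435), and -0.26 (adjusted p = 0.455) in restored tumors. Without the libraries with high airway markers, 8 genes rose with Trp53 deletion in restored tumors, beside 1.71% of all genes. Neither of those libraries is in the groups compared here, so only the fit shared with the other groups changed.

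Trp53-deficient tumors were also set against KT, again with the same 4 KT libraries. In non-restored tumors 59 of 88 genes were higher and 29 lower (median 0.12, against -0.002 over all genes). The test was passed by 5, a share of 5.68%, beside 11.6% of all genes (5.80% higher and 5.79% lower). Rps13 and Rps18 were lower, and Rps3a2, Rpl30 and Rps16 higher. Rps18, a protein of the 40S head, was at 803, 364, 505 and 479.5 CPM in KT and 86.2 (lowest), 217 (median) and 334 CPM (highest) in these tumors, without overlap, with a log2 change of -1.12 (SE 0.26, adjusted p = 0.00814), and copies held at most 2.04% of its family. Rps16 was at 578 to 656 CPM in KT and 612 to 1179 CPM, with 0.61 (SE 0.19, adjusted p = 0.0361, and 0.0362 with copies).

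Rpl30 was at 384 to 622 CPM in KT and 802 to 1368 CPM in these tumors, with 1.06 (SE 0.33, adjusted p = 0.0357) alone and -0.03 (SE 0.23, adjusted p = 0.951) with its copies. Rps13 changed by -1.19 (SE 0.22, adjusted p = 0.00142) alone and by 0.58 (SE 0.17, adjusted p = 0.0302) with copies, past the test in opposite directions. The annotated pseudogene Rps3a2 changed by 0.90 (SE 0.27, adjusted p = 0.0322). The count of 5 was 8 without the animal of replicates 4 and 5 (14.8% of all genes), 3 without KT replicate 1 or 3 (5.60% and 7.40%), and 2 without KT replicate 4 or Trp53-deficient replicate 7 (6.74% and 4.60%). Without both libraries with high airway markers it was 3, beside 9.35% of all genes. In Trp53-deficient restored tumors 55 genes were higher and 33 lower (median 0.03, against 0.003 over all genes). The test was passed by 2, both lower, beside 1.77% of all genes in either direction and 0.851% lower. Rps13 changed by -1.77 (SE 0.22, adjusted p = 3.06e-05) alone and 0.39 (adjusted p = 0.213) with copies, and Rps3a1 by -1.79 (SE 0.37, adjusted p = 0.0145) alone and -0.30 (adjusted p = 0.378) with Rps3a2 and Rps3a3. The count was 1 without KT replicate 1 (0.385% of all genes), and 8 (5 higher and 3 lower) without the libraries with high airway markers, beside 4.96% of all genes. Those libraries are in neither group compared, so in that setting only the fit shared with the other groups changed.

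Other genes of the translation machinery were counted the same way. In non-restored against KT tumors, where 5.86% of all genes passed (3.48% lower), 2 of 21 translation factors fell and none rose: Naca, which guides nascent chains (log2 -0.48, SE 0.12, adjusted p = 0.0175), and Eif4b, an mTORC1-S6 kinase target that aids the helicase eIF4A (log2 -0.54, SE 0.15, adjusted p = 0.0351). Of 23 genes of mTORC1 and S6 kinase signaling, 1 fell, Rps6kb2, an S6 kinase (log2 -0.99, SE 0.27, adjusted p = 0.0340). It was at 6.94 ± 1.65 CPM in KT and 3.46 ± 0.669 CPM in non-restored tumors. Of 79 mitochondrial ribosomal protein genes, 1 rose, Mrps6 (log2 2.02, SE 0.51, adjusted p = 0.0197). It was at 3.18 ± 0.667 CPM in KT and 13.3 ± 6.59 CPM in non-restored tumors. In KT libraries 3 counts equal 1.13 to 2.30 CPM, so the changes of Rps6kb2 and Mrps6 rest on few counts. None of 39 ribosome biogenesis genes or 9 snoRNA host genes passed. On restoration none of these lists had a gene past the test, with or without Trp53.

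In Trp53-deficient non-restored against KT tumors, where 11.6% of all genes passed, 4 of the 23 mTORC1 and S6 kinase genes rose and 1 fell. The largest rise was in Eif4ebp1 (eIF4E binding protein 1; log2 0.93, SE 0.30, adjusted p = 0.0425). Eif4e also rose (log2 0.60, SE 0.19, adjusted p = 0.0415). Rheb, the GTPase that activates mTORC1, rose (log2 0.62, SE 0.17, adjusted p = 0.0216), as did the scaffold Eif4g1 (log2 0.47, SE 0.14, adjusted p = 0.0350). Tsc1, of the complex that inhibits Rheb, fell (log2 -0.55, SE 0.17, adjusted p = 0.0395). Of the biogenesis genes, Nip7 rose (log2 0.91, SE 0.27, adjusted p = 0.0277). Eif4b fell by 0.57 on the log2 scale (SE 0.17, adjusted p = 0.0305). Of 79 mitochondrial ribosomal protein genes 3 rose and 2 fell, beside the same 11.6%.

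Gas5, a TOP transcript without a protein that hosts small nucleolar RNAs, was the list member with the largest change between Trp53 states. It was at 43.1 (lowest), 59.4 (median) and 71.8 CPM (highest) in Trp53-deficient non-restored tumors and at 141, 253 and 375 CPM in non-restored tumors, without overlap, with a log2 change of -2.27 (SE 0.30, adjusted p = 8.37e-05). Against KT the log2 change was -2.09 (SE 0.33, adjusted p = 0.000397). In Trp53-deficient restored against KT tumors it was -1.26 (SE 0.32, adjusted p = 0.0404). For Trp53 deletion in restored tumors Gas5 did not pass the test. It was at 54.3 (lowest), 68.8 (median) and 190 CPM (highest) in Trp53-deficient restored tumors. In restored tumors it was at 156, 188 and 228 CPM, ranges that overlapped. No other gene of the lists described here passed for Trp53 deletion, in non-restored or restored tumors.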

How the data were processed

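RNA was measured in sorted neoplastic cells (2 to 10 ng per library, an rRNA-depleting library kit). The authors aligned reads with STAR 2.6.1d to mm10 and quantified genes with RSEM 1.2.30. The deposited files give, per gene and library, expected counts (estimated counts that share a read among the genes it matches), TPM, effective lengths and the posterior SD of each count. Tables of the authors' own fold changes and p-values, and their table of normalized counts, were not used.

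Expected counts were rounded and tested with edgeR 4.0.16 (quasi-likelihood, robust, TMM, filterByExpr; R 4.3.3, limma 3.58.1), with Benjamini-Hochberg adjustment over all genes and a threshold of 0.05. The SE is the log2 change divided by the square root of F. The 3 Trp53 wild-type groups (21 libraries) were fitted together. Trp53-deficient groups were fitted 4 against 4 after libraries of 1 animal were summed, and comparisons across Trp53 status used 29 such units of all 5 groups. Per-library values are not summed. The study describes fewer mice than libraries in the Trp53 wild-type non-restored and restored groups, and the labels do not tie these libraries to mice, so they could not be summed by animal and p-values there are too small. The scripts were tested on simulated data. DESeq2 1.42.0 and the other settings named in the closing section were alternatives.

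A copy is an annotated pseudogene named after a gene or matched to it by blastn 2.17.0 (identity of at least 90%, at least 50% of the shorter sequence) in GENCODE M21. Genes and lists were chosen with earlier results of these data known. Named were every gene that passed the test where at most 12 did, genes whose change alone and summed differed by over 0.5, the 3 highest and 3 lowest by TPM, 12 genes of known interest and at most 3 of each other list. Of the mTORC1 and S6 kinase list, every gene that passed is named. Total counts, 1302482 to 5943950 per library, set the counting precision. Sex, tumor age and treatment arm differ between groups as described. Some alleles and genes are not reported here.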

Additional observations from a re-analysis of the deposited data

Results flagged for a closer look

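In groups of 4 to 10 samples, a highest or lowest value was singled out when its gap to the nearest other sample passed Dixon's 95% critical value. This was done for 27 quantities in 5 groups, and 28 of 135 groups were singled out. Copy shares and genes among these quantities were named because they varied or passed a test in these data. A single library can also stand out in several of them. The number singled out can therefore not be set against a chance rate. Libraries whose titles name 1 animal were averaged here.

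Non-restored replicate 8, the library with high airway markers, was highest of its group 9 times. Its share of counts in ribosomal protein genes was 6.04%, against 3.68% to 4.5% in the other 9. It had 385 CPM of Rpl18 (others at most 285), 602 of Rpl37 (381), 169 of Rps13 (124), 1040.0 of Rps15a (678), 1110.0 of Rps16 (754), 767 of Rps18 (422), 361 of Rps3a1 (270.0) and 693 of Rps3a2 (514).

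KT replicate 3 had an Rps13 copy share of 44.2% (others 4.25% to 4.72%), an Rps15a copy share of 11.0% (others 1.26% to 1.29%) and 335 CPM of Rps13 (others 481 to 510.0). The animal of Trp53-deficient non-restored replicates 4 and 5 had an Rps13 copy share of 50.2% (others 80.4% to 82.0%) and an Rps15a copy share of 11.7% (others 23.0% to 24.0%). Trp53-deficient non-restored replicate 6 had copy shares of 26.1% for Rpl29 (others 72.3% to 74.5%), 38.5% for Rpl30 (others 3.37% to 3.97%) and 32.8% for Rps3a1 (others 79.6% to 80.1%). KT replicate 1 had copy shares of 21% for Rpl3 (others 26.5% to 27.5%) and 80.0% for Rpl34 (others 38.3% to 45.2%).

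Of the remaining libraries, KT replicate 2 had a copy share of 11.6% for Rplp0 (others 27.8% to 30.2%) and 260.0 CPM of Rpl18 (others 306 to 314). Non-restored replicate 9 had an Rpl3 copy share of 52.9% (others 21.3% to 32.0%), and replicate 10 an Rps7 copy share of 22.6% (others 45.1% to 64.1%). Restored replicate 5 had 441 CPM of Rpl37 (others 353 to 375) and 836 CPM of Rps16 (others 534 to 638). Restored replicate 7 had an Rps3a1 copy share of 76.0% (others 79.5% to 80.7%) and 331 CPM of Rps3a1 (others 251 to 285). Trp53-deficient restored replicate 4 had an Rpl29 copy share of 30.2% (others 72.4% to 75.4%).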

How the results depend on the processing

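Counts below are of ribosomal protein genes past the test, and the cause of a changed count was not tested unless the setting itself removes samples. In the main fits the share of all genes past the test was 5.86%, 0.459%, 11.6%, 1.77%, 0.753% and 0.445%, in the order below. For some other settings the share is given above. Where it is not given, a changed count does not set these genes apart from all genes. For non-restored against KT tumors (7), the count was 12 with DESeq2, 4 with no filter on low counts, 3 with copies summed by name and sequence, by name alone, or with near-copies, 2 with female libraries alone, 4 with only these 2 groups fitted, 3 with the tamoxifen arm alone, 19 with the vehicle arm alone and 29 without the libraries with high airway markers. For restored against KT (5), it was 3 with no filter, 3 with effective length offsets, 1 with copies summed by either rule, 0 with near-copies (from 1 with copies) and 1 with female libraries alone. For Trp53-deficient non-restored tumors against KT (5), it was 9 with DESeq2, 8 with at least 10 counts required in every library, 3 with near-copies, 1 with female libraries, 3 without the libraries with high airway markers and 8 with libraries of 1 animal not summed. For Trp53-deficient restored tumors against KT (2), it was 4 with DESeq2, 1 with copies summed by either rule, 0 with near-copies (from 1 with copies), 1 with female libraries and 8 without the libraries with high airway markers. For Trp53 deletion in non-restored tumors (6), it was 22 with DESeq2, 3 with near-copies, 2 with female libraries and 17 with libraries not summed. For Trp53 deletion in restored tumors (2), it was 4 with DESeq2, 0 with copies summed by either rule or with near-copies, and 8 without the libraries with high airway markers. The near-copy sums and the removal of the libraries with high airway markers were chosen after seeing the data. Both removed libraries are non-restored. In the comparisons of restored tumors with each other or with KT, their removal changed only the shared fit.

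Leaving out 1 library (or, with Trp53 deleted, 1 titled animal) at a time, which need not remove an animal in the Trp53 wild-type groups, gave 4 to 29 genes for non-restored against KT, 2 to 7 for restored against KT, 2 to 8 and 1 to 3 for Trp53-deficient non-restored and restored tumors against KT, and 1 to 47 (15 without replicates 4 and 5) and 2 to 2 for Trp53 deletion in non-restored and restored tumors. Both restoration comparisons and the interaction stayed at 0. The share of all genes past the test also moved in these fits. It was 2.61% to 7.61% for non-restored and 0.161% to 0.436% for restored against KT. With Trp53 deleted, non-restored and restored tumors against KT had 4.6% to 14.8% and 0.385% to 1.28%. Trp53 deletion had 0.188% to 11.3% in non-restored and 0.217% to 0.578% in restored tumors.

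Of 644 log2 changes recomputed for 27 results on single genes, 473 kept direction and side of the threshold, 156 no longer passed and 15 changed sign. All 15 came from summing copies by name and sequence, by name alone, or with near-copies, in that order. They were Rps13 in non-restored against KT (0.0339, 0.0339 and 0.0341), Rps13 in restored against KT (0.0001, by name alone), Rps13 against KT in Trp53-deficient non-restored (0.5808, 0.5808 and 0.592) and restored tumors (0.3916, 0.3925 and 0.4054), Rpl30 in Trp53-deficient non-restored against KT (-0.0281 by name and sequence and -0.016 with near-copies) and Rpl3 for Trp53 deletion in restored tumors (-0.1905, -0.1899 and -0.1729).

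Same-numbered libraries of the Trp53 wild-type groups share only a number: over 15 such pairs the correlation of deviations from the group mean was -0.05 to 0.501, above 0.1 in 6, and in 3 the number was the best match. With that replicate block, 13 genes passed in non-restored against KT, 0 in restored against non-restored and 4 in restored against KT. The share of all genes in these fits is not given, so these counts do not set ribosomal protein genes apart.

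With 4 KT libraries, 4 titled animals in each Trp53-deficient group and Trp53 wild-type libraries that share animals, few independent samples stand behind each value. Rpl3l, Rpl39l and Rpl10l, at 15, 2 and 0 counts, could not be compared.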
